A study of Mus musculus with 12 samples.

Results

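The nuclear genes of the respiratory chain were taken by name from the deposited count table of a mouse skin study: all gene names beginning with Nduf and one of the letters a, b, c, s or v and a digit, with Uqcr, with Cox followed by a digit from 4 to 8, or with Atp5, together with Sdha, Sdhb, Sdhc and Sdhd. A total of 6 names containing -ps were left out. The rule found 84 of 49492 genes, of which 35 belonged to complex I, 4 to complex II, 8 to complex III, 20 to complex IV and 17 to complex V, the ATP synthase. Ndufa4 and its paralog Ndufa4l2 were counted with complex IV, where their products act. Atp5s and Atp5sl carry ATP synthase names and were kept with complex V, although RefSeq lists Atp5sl as Dmac2, a factor that helps to assemble complex I.

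The study profiled whole skin of mice under Control conditions or after UV light, with 3 samples per condition. Each sample gave an IP library, of RNA enriched with an antibody to N6-methyladenosine (m6A), and an input library of the same RNA before enrichment. The series concerns the m6A writer subunit KIAA1429 and collagen synthesis in photoaged skin, and the labels name no genotype, strain, age, sex, body site or UV dose. Nothing in them says whether the 3 samples of a condition were separate mice, and p-values therefore measure only how far these samples spread, which may be technical.

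The respiratory chain passes electrons from NADH and succinate through complexes I and II to coenzyme Q, on to complex III and cytochrome c, and at complex IV to oxygen. Complexes I, III and IV pump protons, and the ATP synthase uses the gradient to make ATP. Most subunits are encoded in the nucleus and imported, while a small core is encoded in mitochondrial DNA, so a complete complex needs transcripts of both genomes. m6A is the most common internal modification of messenger RNA, placed mostly in long internal exons and near stop codons, and it is known to affect splicing, translation and decay.

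The libraries held between 24126662 and 92163619 reads in genes. Members took 0.353% to 0.364% of the reads in Control inputs and 0.376% to 0.398% in UV inputs. A total of 82 of the 84 members had enough reads to be tested. The others, Cox7b2 and Cox8c, testis isoforms of complex IV subunits, had no reads in any input library, which allows up to 3 reads per library. Keratinocyte markers were abundant in every input, and they are the defining markers of epidermis: the 14 markers summed to 61146, 32732 and 87264 CPM (reads scaled to a common library size) in Control and 99990, 66113 and 98455 CPM in UV. Skeletal muscle RNA was present too. The 20 muscle markers summed to 6931, 16051 and 9126 CPM in Control and 5922, 2813 and 7900 CPM in UV, and none of the markers Acta1, Myh4 and Ckm was at 0 in any input. In bulk tissue, fewer cells of a type and less RNA per cell cannot be told apart.

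The promoter sequences of 6 members are shown as examples. Ndufa12 and Atp5g3 had an m6A peak that reached the RefSeq start site, and Ndufb8 had one that ended 2 bases short of it. Atp5f1 was higher in UV input, and Cox6a1 and Cox8b are the ubiquitous and a muscle-type subunit of complex IV. Each sequence is a stretch of 180 bases, from 150 before to 30 after the RefSeq start site, on the strand of the gene (RefSeq, GRCm38.p6). In the first 3, capitals mark the bases inside the called peak, and in the last 3 they mark the motifs described next.
Ndufa12, chr10:94198885-94199064, plus strand: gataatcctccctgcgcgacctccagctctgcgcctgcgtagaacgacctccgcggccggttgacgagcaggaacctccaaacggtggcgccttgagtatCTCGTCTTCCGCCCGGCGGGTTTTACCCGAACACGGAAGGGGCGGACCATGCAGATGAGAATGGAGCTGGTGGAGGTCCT
Atp5g3, chr2:73911297-73911476, minus strand: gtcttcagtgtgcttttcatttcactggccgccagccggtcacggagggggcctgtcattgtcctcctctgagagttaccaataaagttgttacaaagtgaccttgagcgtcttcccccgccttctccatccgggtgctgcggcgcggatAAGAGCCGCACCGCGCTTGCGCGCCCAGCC
Ndufb8, chr19:44555413-44555592, minus strand: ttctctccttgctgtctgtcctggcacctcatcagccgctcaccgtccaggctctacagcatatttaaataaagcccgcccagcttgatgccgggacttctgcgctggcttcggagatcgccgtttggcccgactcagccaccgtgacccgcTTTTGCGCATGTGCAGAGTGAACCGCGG
Atp5f1, chr3:105959234-105959413, minus strand: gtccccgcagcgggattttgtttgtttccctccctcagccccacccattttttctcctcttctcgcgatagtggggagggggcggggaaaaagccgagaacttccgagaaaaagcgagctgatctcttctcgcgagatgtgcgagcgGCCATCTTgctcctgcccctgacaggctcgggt
Cox6a1, chr5:115348929-115349108, minus strand: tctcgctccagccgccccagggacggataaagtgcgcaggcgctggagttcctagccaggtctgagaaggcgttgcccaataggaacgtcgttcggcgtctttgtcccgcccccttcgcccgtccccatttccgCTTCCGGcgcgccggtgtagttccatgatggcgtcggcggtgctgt
Cox8b, chr7:140900417-140900596, minus strand: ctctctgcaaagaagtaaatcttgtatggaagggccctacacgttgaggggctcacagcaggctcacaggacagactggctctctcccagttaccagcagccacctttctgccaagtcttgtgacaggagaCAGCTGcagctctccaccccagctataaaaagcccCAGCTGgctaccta

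RefSeq held a promoter window of 300 bases (250 before and 50 after the start site) for 69 of the 84 members. Members without a window included Atp5a1, Cox4i1, Cox4i2, Cox6a2, Cox6c, Cox8c, Ndufa2, Ndufa4l2, Ndufb9, Ndufs1, Sdhc, Uqcrb, Uqcrc2 and Uqcrq. The windows were searched on both strands for the cores of factors known to act on nuclear mitochondrial genes, and the ETS and YY1 cores can overlap by the letters AAG. Where a gene had several windows, members took the window nearest the start of the gene model, while the comparison over all genes took the first listed. The NRF1 core CGCATGCG was in 8 windows (11.6%), against 1.91% of the windows of 27025 genes. The ETS core CCGGAAG, bound by GABP among others, was in 15 (21.7% against 9.12%), and the YY1 core AAGATGGC in 10 (14.5% against 2.88%). The E-box CAGCTG, the kind bound by muscle regulators, was in 6 (8.70% against 16.1%). Atp5f1 held a YY1 core on the opposite strand that spans its start site, Cox6a1 an ETS core on the opposite strand, and Cox8b a pair of E-boxes. The Cox6a1 window also held an NRF1 core and the Ndufb8 window a YY1 core, both outside the printed stretch. The Ndufa12 and Atp5g3 windows held none of the 4 motifs. The window used for Atp5f1 starts 836 bases inside the gene model of the count table. A match is a description of letters only.

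Among the transcripts of the chain, levels in Control skin spanned a wide range. On the scale of CPM per kilobase of exon, the highest of the 82 was Uqcrh, the hinge subunit of complex III, at 157 ± 16.5 (SD, n = 3), followed by Atp5k, subunit e of the ATP synthase, at 139.5 ± 17.6, and Atp5a1, its alpha subunit, at 87.3 ± 3.24. The first and second of these lay within their spread of each other. The median member stood at 16.1. The lowest were Atp5g1, which encodes the c-ring protein, at 0.67 ± 0.20, Atp5s at 1.13 ± 0.10 and Cox7a1 at 1.89 ± 0.50. The length behind this scale is the union of all exons of a gene, which reached 4912 bases for Atp5g1 and 616 for Atp5k.

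Within complex I the highest level per kilobase was that of Ndufb9, an accessory subunit of the membrane arm, at 86.0 ± 11.5 in Control and 114 ± 5.82 in UV (n = 3 each). The lowest was Ndufb2, of the same arm, at 2.84 ± 0.054 and 3.05 ± 0.17. In complex II, Sdha, the flavoprotein that oxidises succinate, stood at 26.4 ± 0.58 and its iron-sulphur partner Sdhb at 8.79 ± 0.93. Cox4i1, the ubiquitous subunit 4, led complex IV at 58.5 ± 4.78. Complex III ranged from Uqcrh down to Uqcrc2 at 11.9 ± 0.93. In CPM, not scaled to length, Ndufb9 had 53.6, 50.01 and 64.4 in Control and 78.7, 72.1 and 72.2 in UV, without overlap. Ndufb2 had 15.7, 16.0 and 16.3 CPM in Control and 18.3, 16.5 and 16.8 CPM in UV. Sdha had 99.9, 104 and 103.4 CPM in Control and 113, 108 and 106 CPM in UV. These pairs of groups were separated by margins that ranged from narrow (Ndufb2, Sdha) to wide (Ndufb9). Atp5k had 73.5, 90.8 and 93.5 CPM in Control and 111, 101 and 115 CPM in UV, and Atp5g1 had 4.20, 2.27 and 3.395 CPM in Control and 4.12, 2.79 and 2.84 CPM in UV, with overlap for Atp5g1 only.

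The first comparison asked whether transcript levels differed between UV and Control input. A total of 6 members rose in UV skin and none fell (edgeR quasi-likelihood test, Benjamini-Hochberg adjusted p below 0.05 over 24099 genes), 7.32% of the 82 tested, against 3.02% of all genes called higher and 2.81% called lower. Those 6 were Ndufa12 and Ndufa9 of complex I, Sdhc of complex II, Uqcrb and Uqcrc2 of complex III and Atp5f1 of complex V. At an unadjusted p under 0.05, 28 members were higher and 4 lower, beside 2890 higher and 3147 lower of all 24099 genes. The median log2 change of the members was 0.14, beside -0.02 over all genes tested. Scaled by library size alone these were 0.04 and -0.12. With that scaling 16 members were higher and 7 lower at an unadjusted p under 0.05, given without the share over all genes. For 32 members (39.0%) all UV values lay above all Control values, against 15.5% of all genes, and for 4 (4.88%) every UV value lay below every Control value, against 15.5% of all genes.

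Ndufa12, an accessory subunit on the matrix arm of complex I (chromosome 10, 94198955 to 94221443, plus strand, GRCm38), had 53.1, 51.5 and 63.8 CPM in the Control inputs and 87.0, 82.4 and 88.2 CPM in the UV inputs. All UV samples lay above all Control samples, with a gap wider than the spread within either group. The log2 change was 0.61 (SE 0.10, adjusted p = 0.0136), a 1.53-fold rise. Leaving out Control 1, UV 1 or UV 3 moved the adjusted p to between 0.058 and 0.071, with the log2 change at 0.58 to 0.61.

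Atp5f1, subunit b of the peripheral stalk that holds the catalytic head of the ATP synthase still (chromosome 3, 105942698 to 105960099, minus strand), had 102, 121 and 130 CPM in Control and 188, 169 and 172 CPM in UV. The groups did not overlap, and the log2 change was 0.58 (SE 0.10, adjusted p = 0.0191), 1.498-fold. Its exons share 8.21% of their bases with Wdr77 and 4.95% with Gm42890, both on the opposite strand, and whether the deposited counting used strand is not given in the sources used here. The adjusted p was 0.054 to 0.094 without Control 1 or without any 1 of the UV samples.

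Uqcrb, a complex III subunit near the site where coenzyme Q is bound (chromosome 13, 66900617 to 66905378, minus strand), had 62.4, 48.5 and 69.9 CPM in Control and 90, 84.8 and 89.3 CPM in UV. Control samples differed among themselves more than UV samples did, yet none reached the lowest UV value. The log2 change was 0.54 (SE 0.13, adjusted p = 0.0445). Uqcrc2, a core protein of the same complex (chromosome 7, 120635176 to 120659524, plus strand), had 28.4, 29.9 and 33.0 CPM in Control and 39.9, 38.3 and 38.4 CPM in UV, without overlap, and a log2 change of 0.35 (SE 0.08, adjusted p = 0.049). Pdzd9, on the opposite strand, covers 19.7% of the Uqcrc2 exons.

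Ndufa9, a complex I subunit at the joint of the matrix and membrane arms (chromosome 6, 126821721 to 126849136, minus strand), had 26.6, 25.5 and 27.4 CPM in Control and 34.0, 32.3 and 33.4 CPM in UV. Its replicates were tight in both groups, with a log2 change of 0.32 (SE 0.08, adjusted p = 0.0445). Sdhc, a membrane anchor of complex II (chromosome 1, 171127165 to 171150603, minus strand), had 39.9, 38.3 and 42.3 CPM in Control and 52.0, 49.0 and 49.8 CPM in UV, again without overlap, and a log2 change of 0.32 (SE 0.08, adjusted p = 0.0475). The adjusted p of Ndufa9, Sdhc, Uqcrb and Uqcrc2 was above 0.05 without Control 1 or without any 1 of the UV samples, reaching 0.18 (Sdhc, without UV 1), and for all of these but Uqcrb also without Control 2. The count of 6 was 0 without Control 1, UV 1 or UV 3, 1 without UV 2, 4 without Control 2 and 17 without Control 3. The share of all genes called higher moved with it, from 3.02% to 0.721% without Control 1, 2.51% without Control 2, 5.02% without Control 3, and 0.405%, 0.648% and 0.682% without UV 1, UV 2 and UV 3.

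**Figure D1:**
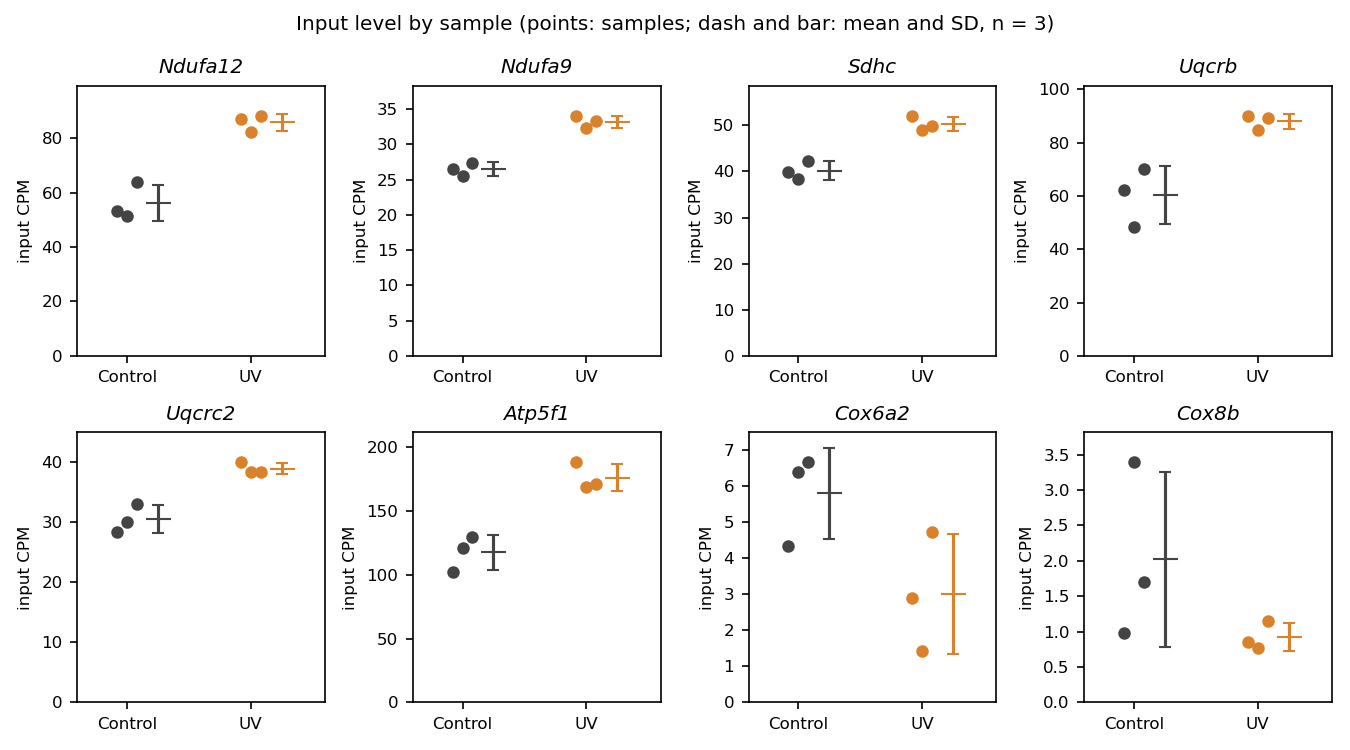
CPM in each input library (vertical axis, from 0) for the 6 members that rose and for the muscle isoforms Cox6a2 and Cox8b, with Control in grey and UV in orange; points are samples, and the dash and bar are the mean and SD of 3. The 6 risers show no overlap between the groups, while Cox6a2 and Cox8b do.

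**Figure D2:**
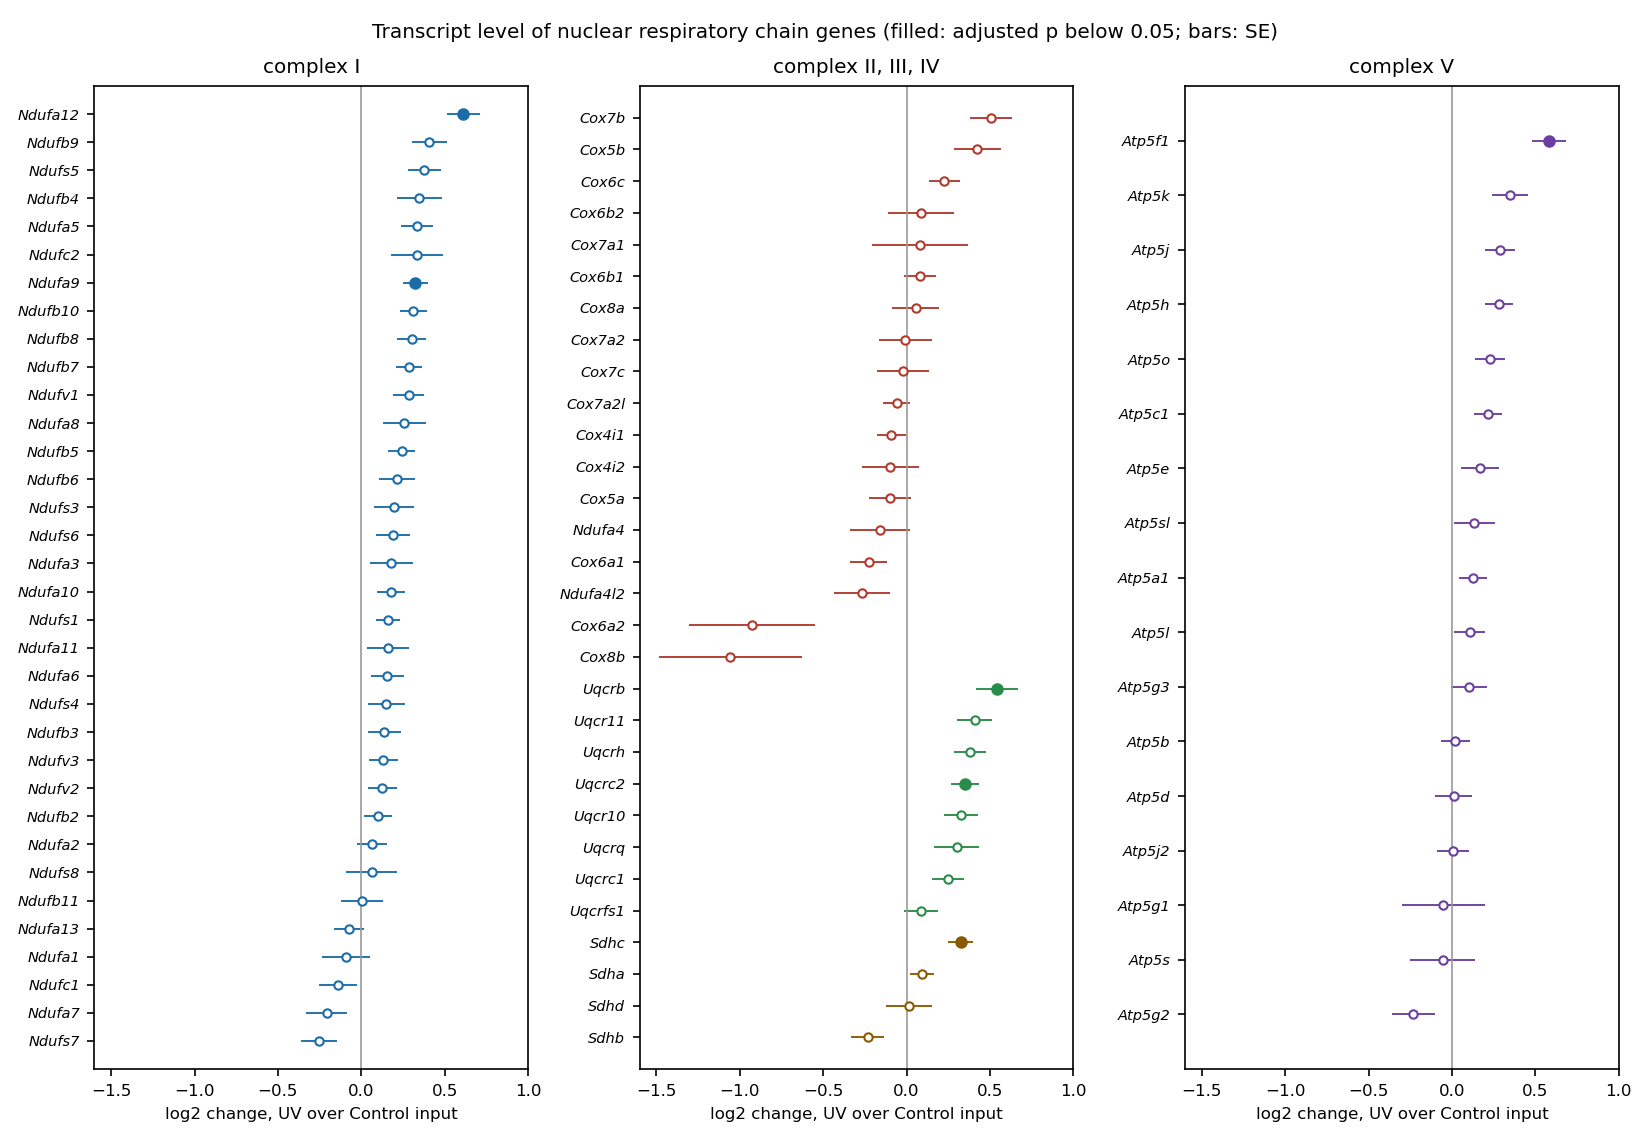
The log2 change between UV and Control input (horizontal axis) for the tested members (1 is not shown), by complex, with the SE as a bar; filled points passed the test. The 8 members of complex III all lie above 0, and complex IV spans from -1.06 (Cox8b) to 0.51 (Cox7b).

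By complex, complex III had all 8 members at a positive log2 change, with a median of 0.34, and in 6 of the 8 all UV values lay above all Control values. Summed over complex III, the level was 437, 452 and 528 CPM in Control and 617, 580 and 614 CPM in UV. Next to the called Uqcrb and Uqcrc2, Uqcrh had 174, 195 and 214 CPM in Control and 251, 244 and 264 CPM in UV (log2 change 0.38, SE 0.10, adjusted p = 0.056). Uqcr11, a small membrane subunit, had a log2 change of 0.41 (SE 0.10, adjusted p = 0.0574). The Rieske protein Uqcrfs1, which carries the iron-sulphur centre of complex III, was at 0.08 (SE 0.10) and at -0.01 with scaling by library size alone.

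Complex I summed to 1010, 1041 and 1136 CPM in Control and 1274, 1199 and 1250 CPM in UV. Of its 35 members, 30 had a positive log2 change, the median was 0.18, and in 16 the groups did not overlap with UV above. The 28 accessory subunits had a median of 0.19, with 2 called, and the 7 core subunits, which carry the flavin and iron-sulphur centres, a median of 0.13, with none called. Ndufs7, a core subunit near the coenzyme Q site, went the other way: its 10.1, 11.8 and 12.02 CPM in Control lay above its 9.57, 9.04 and 9.92 CPM in UV (log2 change -0.25, SE 0.11, adjusted p = 0.193).

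Complex V summed to 1235, 1277 and 1388 CPM in Control and 1548, 1448 and 1465 CPM in UV. These sums, too, overlapped between the groups with scaling by library size alone. The 4 peripheral stalk genes Atp5f1, Atp5h, Atp5j and Atp5o each had all UV values above all Control values, with a median log2 change of 0.29. Of the 5 genes of the F1 head, which holds the catalytic sites, Atp5c1, the rotating gamma subunit, showed that separation, at 81.5, 84.1 and 94.6 CPM against 104, 97.6 and 100.4 CPM, and the median of the 5 was 0.13. Atp5b, the catalytic beta subunit, had 322, 303 and 338 CPM in Control and 340, 329 and 309 CPM in UV, with overlap and a log2 change of 0.02 (SE 0.08), whose sign depended on the scaling. The difference between stalk and head was not tested.

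Complex II summed to 170, 174 and 178 CPM in Control and 194, 186 and 185 CPM in UV. With scaling by library size alone these sums overlapped between the groups. Its members were mixed: Sdhc rose, Sdha was at 0.09 (SE 0.07) and Sdhd at 0.02 (SE 0.14), and both were below 0 with scaling by library size alone. Sdhb had 19.5, 21.9 and 17.7 CPM in Control and 16.5, 16.8 and 16.8 CPM in UV, all below Control, with a log2 change of -0.23 (SE 0.10, adjusted p = 0.181).

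Complex IV summed to 454, 439 and 523 CPM in Control and 534, 490 and 526 CPM in UV. No member was called, the median log2 change was -0.04, and 7 of the 18 tested had a positive value. In 2 of the 18, Cox7b and Cox5b, all UV values lay above all Control values. Cox7b had 55.8, 67.9 and 79.7 CPM in Control and 102, 91.8 and 95.8 CPM in UV (log2 change 0.51, SE 0.13, adjusted p = 0.0531). Cox5b, a subunit on the matrix side, had 78.1, 53.6 and 79.2 CPM against 97.2, 91.4 and 94.8 CPM (log2 change 0.42, SE 0.14, adjusted p = 0.111).

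**Figure D3:**
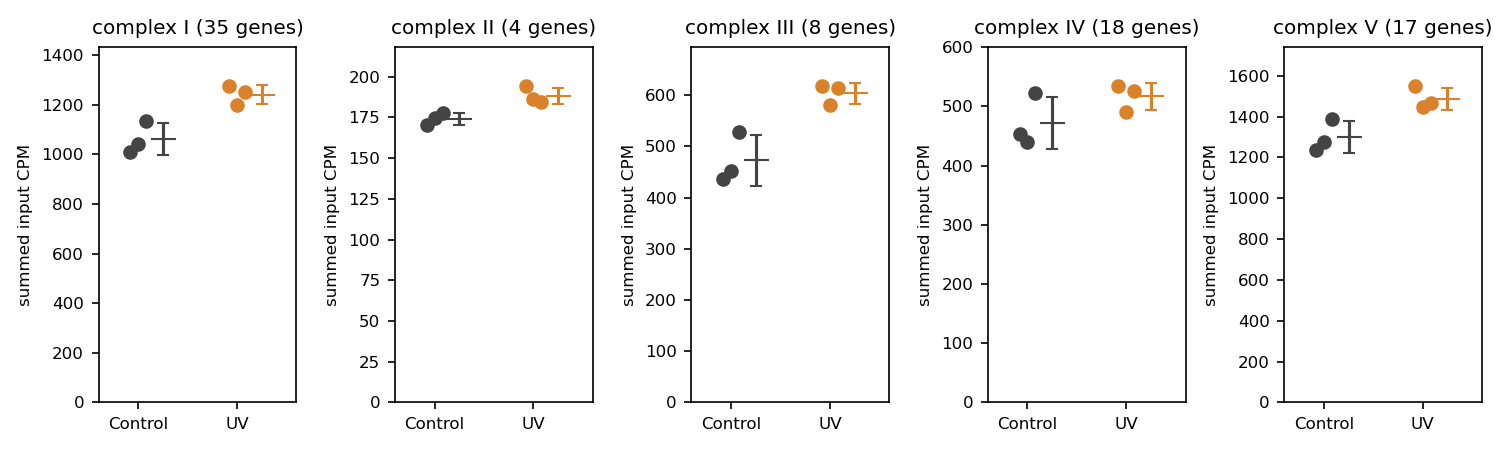
Input CPM summed over the tested members of each complex (vertical axes, from 0), with Control samples in grey, UV samples in orange, and the mean and SD of 3 beside them. In these TMM-scaled values the UV samples lie above the Control samples in complexes I, II, III and V, and overlap them in complex IV. With scaling by library size alone the groups overlap in complexes II and V as well.

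Summed over all members, the level was 3306, 3383 and 3753 CPM in Control (3481 ± 239, SD, n = 3) and 4166, 3904 and 4039 CPM in UV (4036 ± 131). Control 3 held the highest Control value for 62 of the 82 members. The coefficient of variation was larger in Control than in UV for 70 of the 82, with medians of 10.5% and 5.11%, beside 14.7% and 11.1% over all genes. Scaling by library size alone left 3 members called (Ndufa12, Atp5f1, Uqcrb), where 1.89% of all genes were called higher, and 24 in place of 32 members with every UV value above every Control value, where 8.95% of all genes were. Markers of other cells moved in the same libraries: 5 of 10 sebocyte markers and 4 of 11 white fat markers were called higher in UV, with summed levels of 526 to 569 CPM against 859 to 1015 CPM for sebocytes and 333 to 373 CPM against 447 to 511 CPM for white fat. Of 9 fibroblast markers 3 were called lower, and their sum was 8813 to 9710 CPM in Control and 6182 to 7240 CPM in UV. The part of these cell types in the members' values was not tested.

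Several complex IV subunits come as isoforms encoded by separate genes, and the muscle-type Cox8b and Cox6a2 had the lowest log2 changes of the 82 members, while the muscle-type Cox7a1 did not. Cox8b, a muscle-type subunit 8, had 0.985, 3.39 and 1.70 CPM in Control and 0.852, 0.766 and 1.15 CPM in UV. Control 2 stood highest and the groups overlapped (log2 change -1.06, SE 0.43, adjusted p = 0.17). Cox6a2, the muscle-type subunit 6a, had 4.34, 6.395 and 6.65 CPM in Control and 2.90, 1.41 and 4.73 CPM in UV, also with overlap (log2 change -0.93, SE 0.38, adjusted p = 0.171). Cox7a1, the muscle-type subunit 7a, had 1.03, 0.732 and 1.26 CPM in Control and 0.994, 0.864 and 1.39 CPM in UV (log2 change 0.08, SE 0.29, adjusted p = 0.89).

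The skeletal muscle markers were lower in the same UV libraries: 3 of 20 were called lower and none higher, with a median log2 change of -0.98. Across the 6 inputs the log2 CPM of Cox8b followed the mean of those markers with a Pearson correlation of 0.93 and that of Cox6a2 with 0.91. These are descriptions over libraries that share the Control and UV grouping. Ndufs7 (0.88) and Cox6a1 (0.88) followed it most closely after them, Cox7a1 stood at -0.13, and Atp5g3 was the lowest at -0.89. What part muscle content had in these values was not tested. Brown fat also uses Cox7a1 and Cox8b. Its defining gene Ucp1 was at 0 to 0.064 CPM over the inputs, while 2 of the 6 brown fat markers tested were called higher, Cidea (log2 change 0.94, SE 0.15, adjusted p = 0.0152) and Elovl3 (0.82, SE 0.17, adjusted p = 0.03), which sebaceous glands also express. The 7 brown fat markers summed to 138, 100 and 138 CPM in Control and 216, 188 and 174 CPM in UV, and their part in the values of these isoforms was not tested.

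The ubiquitous partners are described next. Cox8a had 13.4, 9.21 and 11.8 CPM in Control and 12.5, 11.8 and 11.7 CPM in UV. Cox6a1 had 11.4, 14.3 and 12.6 CPM in Control and 10.4, 10.9 and 11.4 CPM in UV, all below Control by a narrow margin (log2 change -0.23, SE 0.11, adjusted p = 0.244). Cox7a2 had 8.35, 7.05 and 10.7 CPM in Control and 9.62, 8.27 and 8.29 CPM in UV. Cox4i1 had 82.1, 94.1 and 95.7 CPM in Control and 87.2, 81.1 and 86.8 CPM in UV, and its hypoxia-linked isoform Cox4i2 stood at 1.96 to 2.54 CPM over the 6 inputs. The testis-type Cox6b2 stood at 1.87 to 2.84 CPM, beside 23.8 to 28.5 CPM for Cox6b1. Ndufa4 had 25.01, 20.9 and 35.2 CPM in Control and 26.5, 21.5 and 24.9 CPM in UV, and its hypoxia-induced paralog Ndufa4l2 had 15.6, 17.2 and 22.1 CPM against 18, 12.4 and 15.3 CPM. The 3 genes for the identical mature c-ring protein were led by Atp5g3, at 27.0 to 36.4 CPM, over Atp5g2 at 3.94 to 5.27 CPM and Atp5g1 at 2.27 to 4.20 CPM. Reads shared between such paralogs or with processed copies could not be traced in the deposited counts.

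The subunits encoded in mitochondrial DNA were read from the same inputs. None of the 13 was called in either direction and their median log2 change was 0.02, with 2 of 13 higher at an unadjusted p under 0.05. Summed, they stood at 5256, 6110 and 5520 CPM in Control and 6025, 5288 and 6062 CPM in UV, with overlap. The difference between the nuclear and the mitochondrial genes was not tested.

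Genes that serve the chain without being subunits showed single calls. Of 14 complex I assembly factors none was called (median 0.09), nor of 10 factors for complexes II and III (median 0.04). Among 19 complex IV assembly factors Pet100 rose, from 65.9, 70.7 and 83.9 CPM to 122, 111 and 120 CPM (log2 change 0.68, SE 0.10, adjusted p = 0.012). Of 4 ATP synthase assembly and inhibitor genes Atpaf2 rose (log2 change 0.50, SE 0.11, adjusted p = 0.0424, and 0.0759 with scaling by library size alone). Of 16 genes for electron carriers and coenzyme Q synthesis 2 rose. Pdss1, which makes the side chain of coenzyme Q, had 16.6, 12.1 and 24.8 CPM in Control and 54.1, 52.4 and 39.7 CPM in UV (log2 change 1.44, SE 0.24, adjusted p = 0.0155), and Coq8b had a log2 change of 0.55 (SE 0.12, adjusted p = 0.0323, and 0.0598 with scaling by library size alone). Without UV 1, none of Pet100, Atpaf2, Pdss1 and Coq8b passed, at adjusted p of 0.064, 0.16, 0.0726 and 0.136. Pet100 also lost its call without UV 3, Pdss1 without Control 1 or UV 2, and Atpaf2 and Coq8b without Control 1, UV 2 or UV 3, Atpaf2 without Control 2 too. None of 13 citrate cycle genes (median 0.01) and none of 12 regulators of mitochondrial genes (median -0.04) was called. Among the regulators, the coactivator Ppargc1a was at -0.40 (SE 0.20, adjusted p = 0.251), Esrra at 0.32 (SE 0.16, adjusted p = 0.251) and Tfam, the mitochondrial DNA packaging factor, at 0.21 (SE 0.10, adjusted p = 0.243).

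The second comparison set IP against input within each condition, which ranks transcripts by antibody enrichment relative to the average transcript. The 82 members lay mostly below it. In Control 48 (58.5%) were called below and 15 (18.3%) above, where 25.8% and 24.6% of 25022 genes were, and in UV 44 (53.7%) were below and 15 (18.3%) above, where 24.4% and 24.7% of all genes were. The median log2 IP over input of the members was -0.44 in Control and -0.37 in UV, beside -0.04 and -0.01 for all genes. A total of 43 members were called below in both conditions and 12 above in both, and no member had calls of opposite sign. Per sample, the members' median was -0.51, -0.45 and -0.44 in Control and -0.43, -0.45 and -0.44 in UV, so all 6 samples gave nearly the same value.

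Cox7a2l, which encodes the factor SCAF1 that joins complexes III and IV into supercomplexes, had the highest enrichment: its log2 IP over input was 1.57, 1.70 and 1.67 in Control and 1.43, 1.41 and 1.43 in UV. The fitted values were 1.64 (SE 0.08, adjusted p = 1.9e-08) and 1.42 (SE 0.07, adjusted p = 5.6e-08). Its relatives Cox7a2 and Cox7a1 are subunits proper. Cox7a1 had values of 0.92, 1.68 and 1.22 in Control and 0.33, 0.49 and 1.02 in UV, called above in Control (1.24, SE 0.34, adjusted p = 0.00846, and 0.0525 without Control 2) and not in UV (0.69, SE 0.34, adjusted p = 0.11, and 0.0123 with the sample as a block).

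Ndufa12 came next in Control, and after Atp5g3 in UV, at 1.52, 1.65 and 1.49 in Control and 1.01, 1.13 and 1.18 in UV, with all UV values below all Control values. Ndufa8, a complex I subunit of the intermembrane side, had 1.02, 1.42 and 1.08 in Control and 0.98, 1.04 and 1.06 in UV. Atp5g3 had 0.78, 1.08 and 0.98 in Control and 1.25, 0.97 and 1.17 in UV, and led complex V. In complex III Uqcrb led, at 0.91, 0.83 and 0.87 in Control and 0.62, 0.66 and 0.57 in UV.

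The lowest values included subunits of complexes III, IV and V. Cox5a, on the matrix side of complex IV, had -2.21, -1.41 and -1.43 in Control and -0.76, -1.44 and -1.42 in UV, where Control 1 stood lowest and UV 1 highest. Cox8a had -1.85, -1.20 and -1.78 in Control and -1.42, -1.599 and -1.40 in UV. Atp5l, subunit g of the ATP synthase, had -1.32, -1.38 and -1.43 in Control and -1.34, -1.23 and -1.45 in UV, and Uqcrq, the lowest of complex III, had -1.38, -1.04 and -1.22 in Control and -1.35, -1.16 and -1.24 in UV. All of these were called below the average transcript in both conditions.

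By role, all 5 F1 head genes of the ATP synthase were below in both conditions, with medians of -0.82 and -0.86, while Atp5s and Atp5sl were above in both. All 4 complex II members had values below 0 in every sample, from Sdhd at -0.36 (SE 0.15) to Sdha at -0.89 (SE 0.07) in Control. Sdhd had -0.33, -0.34 and -0.36 in Control and -0.26, -0.18 and -0.41 in UV, and Sdha had -0.82, -0.89 and -0.95 in Control and -0.86, -0.87 and -0.92 in UV. Of 13 citrate cycle genes 13 were below in both conditions. The mitochondrially encoded genes lay on the other side, with 8 of 13 above and 3 below in Control and a median of 0.61. Cytoplasmic ribosomal protein genes, a class of short and abundant messages, had a median of -0.47, with 53 of 91 below and 9 above in Control. The 82 values of the 2 conditions correlated at 0.96 (Pearson, over members that share libraries). Enrichment in Control had a correlation of -0.21 with the log2 exonic length of the members, 0.06 with their log2 level per kilobase and 0.06 with their change in input, given as descriptions over 82 genes that are no independent replicates.

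**Figure D4:**
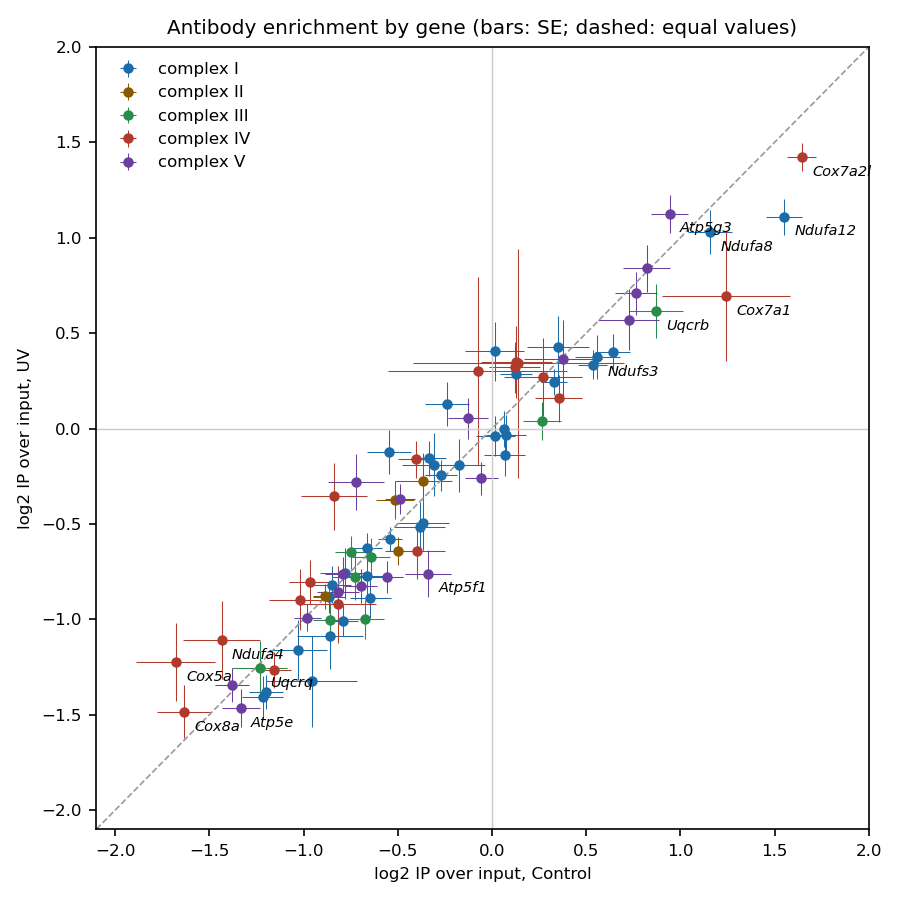
Fitted log2 IP over input in Control (horizontal axis) and UV (vertical axis) for the tested members (1 is not shown), coloured by complex, with SE bars; the dashed line marks equal values. Most points lie below 0 on both axes and near the line, with Cox7a2l at 1.64 and 1.42 at the upper end and Cox8a at -1.64 and -1.48 at the lower end.

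The third comparison asked whether IP over input changed between Control and UV. No member was called by edgeR in the fit with 4 group means, where 0.012% of all genes were called. At an unadjusted p under 0.05 there were 2 members up and 3 down, beside 668 up and 393 down of the 24099 genes tested in input. The IP and input library of a sample deviated together, so the fit with the sample as a block is given beside it. With the block 3 members were called, all down, where 1.595% of all genes were called. Ndufa12 had a change of -0.44 (SE 0.13, adjusted p = 0.757) without the block and -0.44 (SE 0.07, adjusted p = 0.00089) with it. Atp5f1 had IP over input of -0.14, -0.68 and -0.22 in Control and -0.89, -0.71 and -0.68 in UV, with the highest UV value at the lowest Control value, and a change of -0.42 (SE 0.17, adjusted p = 1) without the block and -0.41 (SE 0.10, adjusted p = 0.0388) with it. Uqcrb had a change of -0.26 (SE 0.20, adjusted p = 1) without the block and -0.26 (SE 0.06, adjusted p = 0.0423) with it, and its UV values all lay below its Control values. These 3 genes were also among the 6 that rose in input, and input enters both measures. Among members not called in either fit, Ndufa7, an accessory subunit of complex I, had a difference in IP over input of 0.42 (SE 0.16, adjusted p = 1) and Uqcr11 one of -0.33 (SE 0.14, adjusted p = 1).

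The deposited peak table held 61 peaks in 33 of the 84 members, 20 called in the Control arm, in 15 genes, and 41 in the UV arm, in 32 genes. Of the 82 tested members 40.2% had a peak, beside 50.1% of all tested genes. Overlapping peaks formed 43 loci, of which 17 were called in both arms, 23 in the UV arm alone and 3 in the Control arm alone. Of the UV-arm peaks 43.9% overlapped a Control-arm peak, against 59.2% of the 24969 UV-arm peaks of all genes, and of the Control-arm peaks 85.0% overlapped a UV-arm peak, against 85.1% of 18020. Whether peaks were called on pooled or single samples is not given in the sources used here. Members with peaks in both arms (14) had a median log2 IP over input of 0.70 in Control, those with peaks in 1 arm (19) -0.24, and those without (49) -0.73. Peaks and whole-gene enrichment rest on the same reads, so this order is a description.

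Ndufv3, an accessory subunit of the NADH-binding module of complex I, held 4 loci called in both arms. The strongest, in exon 4 (chr17:31527370-31527459, Control arm), had log2 IP over input of 2.15, 2.70 and 2.44 in Control and 2.95, 2.90 and 2.62 in UV. Across the whole Ndufv3 transcript the values were 0.56, 0.59 and 0.47 in Control and 0.27, 0.34 and 0.39 in UV. The stretch was called for its high IP over input and is the strongest of the gene's peaks, so its excess over the whole transcript follows from that choice. The single Cox7a2l locus, in its last exon (chr17:83501948-83502419, UV arm), had 1.58, 1.70 and 1.66 in Control and 1.45, 1.46 and 1.47 in UV. In Atp5sl the last-exon peak (chr7:25625016-25625462, Control arm) had 1.35, 2.00 and 2.499 in Control and 1.82, 1.75 and 1.95 in UV.

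By place, 14 of 61 member peaks (23.0%) had their midpoint in the first exon, against 9.95% of 42989 peaks, and 23 (37.7%) in the last exon, against 44.4%. A further 12 lay in internal exons and 12 had a midpoint in an intron. Peaks are counted per arm, so the first-exon loci of Ndufb10, Ndufb8, Ndufs1 and Ndufs3 enter once for each arm. The first-exon peaks also include midpoints far from the transcript start, at 63.2% of exonic length in Atp5j2 and 59.1% in Atp5k. The number of exons per gene was not matched in this comparison. Of the 43 loci 11 reached to within 100 bases of the start of the gene model, in Atp5g1, Atp5g3, Atp5k, Cox6a2, Ndufa12, Ndufa8, Ndufb10, Ndufb8, Ndufs1, Ndufs3 and Uqcrb. This count is given without the share over all peaks. The UV-arm peak of Uqcrb spanned its whole gene model, and that of Atp5k all but the first 28 bases. For such peaks, reaching the start does not place the enrichment there. The Atp5g3 peak (chr2:73910971-73911326, UV arm) began at the RefSeq start site, where the capitals of its sequence begin, and had log2 IP over input of 1.67, 2.28 and 1.94 in Control and 2.45, 2.16 and 2.29 in UV. In Ndufb8, an accessory subunit of the membrane arm, the peak (chr19:44555321-44555440, UV arm) covered the last 28 bases of the printed stretch, with 0.87, 0.79 and 0.57 in Control and 0.27, 0.34 and 0.65 in UV.

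The Ndufa12 peak was called over the same stretch in both arms (chr10:94198985-94200014) and covered the last 80 bases of the sequence shown. Its IP over input was 1.54, 1.67 and 1.496 in Control and 1.02, 1.14 and 1.20 in UV, almost the same as for the whole gene, with all UV values below all Control values. The change was -0.45 on the log2 scale, with an adjusted p of 0.54 without the block and 0.0051 with it.

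Peaks called in the UV arm with no Control-arm partner are described by their distance to the 3′ end. Of the 22 with an exonic midpoint, 8 (36.4%) lay beyond 90% of the exonic length, against 14.8% of 8898 such peaks over all genes. Of the 12 exonic UV-arm peaks that did overlap a Control-arm peak 1 (8.33%) lay there, against 9.49% over all genes. The 8 were in Atp5b, Atp5c1, Ndufb9, Ndufs7, Ndufs8, Sdha, Sdhd and Uqcrc2, and none was longer than 149 bases. All 8 entered this group by being called in the UV arm alone, which favours higher values in UV. Their separation and p-values are not independent of that choice. The Atp5b peak (chr10:128090271-128090361) had log2 IP over input of 1.07, 0.93 and 0.64 in Control and 2.00, 1.74 and 2.49 in UV, without overlap (change 1.39, SE 0.51, adjusted p = 0.553). The Sdha peak (chr13:74322254-74322344) had 1.02, -0.78 and 0.26 in Control and 1.27, 0.90 and 1.10 in UV, where the Control samples spread widely. The Ndufb9 peak (chr15:58939371-58939489) had 0.93, 0.66 and 0.87 in Control and 0.70, 0.68 and 0.79 in UV, and the groups overlapped, although it was called in the UV arm alone.

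**Figure D5:**
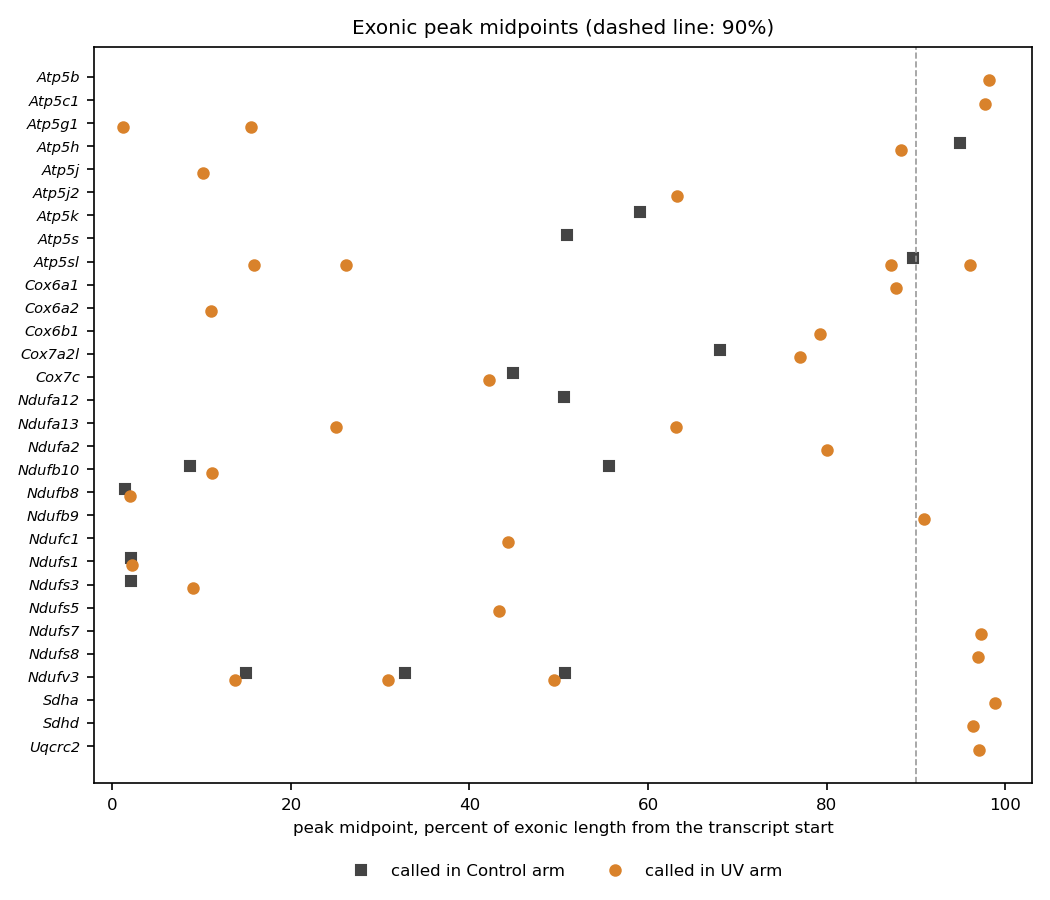
Midpoints of the member peaks that fall in exons, as a percentage of exonic length from the transcript start (horizontal axis), with 1 row per gene; squares are Control-arm peaks and circles UV-arm peaks. Of the UV-arm peaks without a Control-arm partner, 8 lie beyond the dashed line at 90%.

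Read counts within each peak were tested for a change of IP over input. No member peak of 58 tested was called by edgeR, and 0% of 41273 peaks were. At an unadjusted p under 0.05, 4 member peaks were up and 3 down, given without the share over all peaks. With the sample as a block, 4 member peaks were called, where 0.979% of all peaks were: the Ndufa12 stretch, listed once per arm, the Cox6b1 peak in its last exon (chr7:30616949-30617067), and the Control-arm peak in the first exon of Ndufs3 (chr2:90904737-90904827). Cox6b1, a subunit on the outer face of complex IV, had 0.62, 0.99 and 0.56 in Control and 1.55, 1.93 and 1.85 in UV, with a wide gap (change 1.10, adjusted p = 0.00892 with the block, and 1.13, adjusted p = 0.0279 with DESeq2). The whole Cox6b1 transcript had -0.48, -0.32 and -0.40 in Control and -0.20, -0.13 and -0.16 in UV. The Cox6b1 peak was called in the UV arm alone. It therefore entered the test through the arm where it was higher, and its p-values are not independent of that choice. Ndufs3, a core subunit of complex I, had 1.26, 1.41 and 1.28 in Control and 0.47, 0.67 and 0.84 in UV over its Control-arm peak (change -0.65, adjusted p = 0.0122 with the block). This peak too was called in the arm where it was higher. The wider UV-arm peak of the same locus (chr2:90904433-90904827) had a change of -0.27 (SE 0.21, adjusted p = 0.766) without the block. It was not called with the block. In the authors' deposited table none of the 61 member peaks had an FDR below 0.05, where 45 of 42989 peaks did, and the lowest was that of Cox6b1 (FDR 0.119, log2 change 1.12).

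Counts of 25 tested members could include reads of other genes, since their exons share bases with those of a neighbour. The shares were largest for Atp5o (44.0%, with Donson, Gm15976 and D430001F17Rik), Ndufb6 (39.0%, with Toporsos) and Ndufa13 (29.98%, with Tssk6). Sdhc and Ndufa12 shared none, and Ndufa9 and Uqcrb shared 3.19% and 5.71% with an antisense gene.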

How the data were processed

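Total RNA of mouse skin was sequenced as 12 libraries, an m6A IP and an input for each of 6 samples, prepared with a stranded mRNA kit per the labels' protocols. Per the submitters' processing notes, STAR 2.5.3a and GRCm38 were used. The counting program, its strand setting, its handling of multi-mapped reads and the peak caller were not given in the sources used here. The authors deposited raw read counts per gene and per peak, and, per the file headers, a log2 change, a p-value and an FDR for each peak. Between 79.5% and 83.6% of gene counts from 1 to 20 were even, so counting error is larger than the counts alone give. Genes were tested with edgeR 4.0.16 (quasi-likelihood, TMM scaling, filterByExpr, R 4.3.3) over all genes, with Benjamini-Hochberg adjustment and a threshold of 0.05. Expression used the 6 inputs, and IP over input all 12 libraries with 4 group means; peaks used the library sizes of the gene table. SE is the log2 change divided by the square root of F. CPM values use TMM, log2 values per sample a prior count of 2, and levels per kilobase the deposited exonic length. Peak starts are printed counted from 1.

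The scripts were tested on simulated data. IP and input of a sample deviated together (correlation 0.606 to 0.870 over 11728 genes, against -0.700 to -0.157 for other numbers of the condition), so they are paired by sample, and values from a sample-blocked fit stand beside the main ones where a call changed. All members entered the tests and counts, and the single values of 1 member are not reported here; values in every sample were given for members called, for the highest and lowest level and IP over input per complex, and for most tissue isoforms (ranges for the others), with examples from the other lists by smallest p. Ndufs7, Sdhb, Atp5b, Atp5c1, Cox5b, Cox7b and the single peaks were named after their values were seen. The members and lists were chosen with earlier results of these data known. Alternatives were scaling by library size, DESeq2 1.42.0, no filter on low counts, the replicate block and leaving out each sample.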

Additional observations from a re-analysis of the deposited data

How the results depend on the processing

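The number of members higher in UV input was 6, and became 3 with scaling by library size alone, 14 with DESeq2, 2 with the replicate number as a block across Control and UV, and 0 to 17 with each sample left out. Over all genes the share called higher was 3.02%, and 1.89%, 5.57%, 1.53% and 0.405% to 5.02% in the same fits. Same-numbered Control and UV inputs did not deviate together (correlations -0.094, 0.116 and -0.238), so that block rests on the number alone. Members above the average transcript in UV IP over input numbered 15, and 8 with scaling by library size alone and 9 to 17 with each sample left out, 9 of them without UV 3. The background moved too. The median of all genes went from -0.01 to -0.16 with scaling by library size alone. Calls over all genes in either direction numbered 12272, and 9230 without UV 3. The share called above alone is not given for these alternatives. With the sample as a block, 3 members and 3 member peaks were called down and 1 member peak up in the change of IP over input, where the main fits called 0, and DESeq2 called 1 member peak up. Members with every UV value above every Control value numbered 32, and 24 with scaling by library size alone, chosen after seeing the data. With each sample left out they numbered 33 to 47, beside 18.5% to 22.6% of all genes, but such a count can only stay or rise when a sample is dropped and says nothing about stability. Among 61 gene values recomputed, log2 changes in input near 0 turned negative: with scaling by library size alone Uqcrfs1 (-0.0131), Atp5b (-0.0766), Sdha (-0.00815), Sdhd (-0.0739) and Cox7a1 (-0.0139). With each sample left out Atp5b ranged from -0.0195 to 0.0617, below 0 without Control 2 or UV 1, Sdhd from -0.0802 to 0.186, below 0 without Control 1 or 2, and Cox7a1 from -0.153 to 0.271, below 0 without Control 2 or UV 3. List medians and single peaks outside these were not recomputed. The causes were not tested.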
